A study of Homo sapiens with 16 samples.

Results

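The HOX cluster genes are the homeobox transcription factor genes that lie in the 4 clusters HOXA, HOXB, HOXC and HOXD. The 33 members were all genes of the deposited scaled table whose symbol was HOXA, HOXB, HOXC or HOXD followed by a paralogue number, out of 22916 genes in that table, and antisense transcripts were not counted among them. HOXA held 11 members, HOXB 9, HOXC 8 and HOXD 5. Their RNA was measured in the human colon carcinoma line HCT116, in 4 groups of 4 libraries. Truncation knockdown cells carried an edited Rpn10 (encoded by PSMD4, a ubiquitin receptor of the proteasome) without its ubiquitin interacting motif, and received 4 pooled siRNAs that target OTUD5, a deubiquitinase. Truncation scramble cells carried the same edit and received a scrambled siRNA. WT knockdown cells were unedited and received the OTUD5 mix, and WT scramble cells were unedited and received the scrambled siRNA. Every group was reverse transfected at 50 nM and collected after 48 hours. Whether the edited line is 1 clone is not given in the sources used here, so the edit and other differences of that line cannot be told apart.

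HOX proteins bind DNA together with cofactors of the TALE homeobox class and specify position along the body axis. Genes of low paralogue number act towards the head and genes of high number towards the tail, in the same order in which they lie along each cluster, and genes that share a number in different clusters descend from a common ancestor gene. The clusters are kept off by Polycomb proteins and kept on by trithorax proteins, retinoic acid induces genes of low number, and adult intestinal epithelium and colon tumours keep position-dependent HOX expression.

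Libraries held between 28777244 and 29645663 counts. OTUD5, the siRNA target, averaged 20.7 ± 1.49 CPM in truncation knockdown cells, 94.9 ± 2.27 in truncation scramble cells, 20.02 ± 2.05 in WT knockdown cells and 88.5 ± 3.18 in WT scramble cells (SD, n = 4 each). PSMD4 averaged 321 ± 16.8, 202 ± 5.37, 263 ± 26.7 and 236 ± 13.2 CPM in the same groups, and this whole-gene value does not check an edit of its end. In WT knockdown replicate 3, 32264 genes were detected, while no other library had fewer than 25626 or more than 27765. Of 12 listed markers of colon epithelium, 10 were in the scaled table and 8 passed the filter on low counts. The 10 summed to 3910 to 5400 CPM per library, a sum that does not give the level of each marker. CDX1 and LGALS4 lay outside the scaled table, and VIL1 averaged at most 0.157 CPM in any group. Marker lists of other cell types were low, with sums of 42.5 to 62.3 CPM for mesenchymal cells and 0.665 to 2.89 CPM for endothelium. Blood cell markers summed to 0.343 to 3.35 CPM in all libraries but WT scramble replicate 4, where they reached 15.9 CPM. The mesenchymal sum was highest in WT scramble libraries, at 52.4 to 62.3 CPM, against 44.3 to 57.2 CPM in WT knockdown libraries, and its part in the HOX results was not tested. CPM is here the deposited value, a count scaled to the size of its library and by TMM, a method that balances libraries of unequal composition. The labels call the libraries of a group biological replicates without saying whether they came from separate cultures, so the p-values reflect how these libraries vary, part of which may be technical. A gene was called where the adjusted p of edgeR's quasi-likelihood test, corrected over 17104 genes, lay under 0.05, and differences are log2 fold changes ± SE.

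RefSeq promoter windows on GRCh38.p14 were found for 16 members. Of those members called higher after knockdown in both genotypes (described below), HOXA6, HOXA9 and HOXA10 had a window of 250 bases before a start with no annotated exon over it, and these windows are shown because the genes moved together. All lie on the minus strand of chromosome 7, inside the annotated span of their own gene and outside its exons. Capitals mark matches, on either strand, to the letters TATAAA of the TATA box, to the CCAAT box, to GGGCGG of the GC box, to TGATTNAT for HOX with PBX, to TTTATG for CDX proteins or to AGGTCA for retinoid receptors.
HOXA6, chr7:27147775-27148024, minus strand: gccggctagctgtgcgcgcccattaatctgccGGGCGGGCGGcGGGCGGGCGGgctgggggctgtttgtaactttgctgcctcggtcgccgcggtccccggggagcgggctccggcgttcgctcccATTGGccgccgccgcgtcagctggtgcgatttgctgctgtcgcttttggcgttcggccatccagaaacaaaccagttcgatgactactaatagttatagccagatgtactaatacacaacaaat
HOXA9, chr7:27165538-27165787, minus strand: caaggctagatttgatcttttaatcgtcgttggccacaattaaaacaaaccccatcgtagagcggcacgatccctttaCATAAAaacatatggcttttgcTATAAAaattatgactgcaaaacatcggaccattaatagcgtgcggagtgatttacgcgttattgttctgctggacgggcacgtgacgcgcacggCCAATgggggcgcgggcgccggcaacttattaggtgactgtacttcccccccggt
HOXA10, internal start, chr7:27174321-27174570, minus strand: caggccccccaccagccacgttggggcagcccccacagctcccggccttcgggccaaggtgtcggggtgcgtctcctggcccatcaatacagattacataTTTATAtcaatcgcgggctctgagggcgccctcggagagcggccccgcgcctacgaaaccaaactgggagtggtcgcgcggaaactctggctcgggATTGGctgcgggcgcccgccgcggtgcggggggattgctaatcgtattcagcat

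Positions are counted back from the RefSeq start and give the leftmost base of a match. The HOXA9 window held a TATA match at -150, a CCAAT match at -55 and a CDX match at -172. The HOXA10 window held a TATA match at -150 and a CCAAT match at -54, both on the opposite strand to those of HOXA9 but at nearly the same places. HOXA6 had no TATA match, 4 GC box matches between -218 and -203, of which neighbours overlap, and a CCAAT match at -124. Over all 35116 windows of this length, 10.7% held a TATA match, 32.0% a CCAAT match, 42.6% a GC box, 2.48% a HOX-PBX match, 9.64% a CDX match and 12.1% a retinoid receptor match. None of these 3 windows held the HOX-PBX or retinoid receptor letters. CpG sites numbered 27, 20 and 24 in the HOXA6, HOXA9 and HOXA10 windows, against a median of 11 over all windows. A match of letters is a description and not a measured site.

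The clusters also hold microRNA genes, whose small RNAs this assay did not measure. They are shown because they lie among the genes described here and because the miR-196 family is known to pair with the HOXB8 message. MIR196B lies at chr7:27169528-27169549 (mature sequence, minus strand) next to HOXA9 and HOXA10, MIR196A2 at chr12:53991762-53991783 (plus strand) among the HOXC genes, MIR196A1 at chr17:48632532-48632553 and MIR10A at chr17:48579904-48579926 (both minus strand) among the HOXB genes. Capitals mark the seed, bases 2 to 8, which the miR-196 members share. The mature sequences come from RefSeq on GRCh38.p14.
hsa-miR-196b-5p: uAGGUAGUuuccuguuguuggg
hsa-miR-196a-5p: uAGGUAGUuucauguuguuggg
hsa-miR-10a-5p: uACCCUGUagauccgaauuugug
HOXB8 site, in the 3′ UTR, chr17:48612770-48612791, minus strand: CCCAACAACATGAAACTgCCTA

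In the HOXB8 site, capitals mark bases that equal the reverse complement of miR-196a, and the lower-case letter is the 1 base of 22 that differs. The RNA of the MIR196A1 gene was listed at a low level and did not pass the count filter, so no change in a microRNA was tested.

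Levels between genes were compared per kilobase of exon. In WT scramble cells the HOXB genes of the middle of the cluster stood highest. HOXB8, HOXB7 and HOXB9 averaged 36.5 ± 1.91, 24.3 ± 2.77 and 19.7 ± 0.284 CPM per kb (SD, n = 4), and HOXA9 followed with 16.2 ± 0.486 CPM per kb. The next levels were HOXB4, HOXB6 and HOXB5, at 8.46 ± 0.198, 7.33 ± 0.727 and 6.94 ± 0.592 CPM per kb, of which HOXB6 and HOXB5 overlapped in their SDs. No HOXC gene exceeded the 5.17 ± 0.656 CPM per kb of HOXC9, and no HOXD gene exceeded the 1.75 ± 0.0673 CPM per kb of HOXD8. In HOXA the second level was that of HOXA5, at 5.11 ± 0.256 CPM per kb, while HOXA2, HOXA4 and HOXB2, of low number, averaged 0.261, 0.3 and 0.495 CPM per kb. Low levels were not confined to low numbers, as HOXC11 and HOXD11 averaged 0.193 and 0.0455 CPM per kb. HOXA3 and HOXB3, also of low number, averaged 1.6 and 1.64 CPM per kb.

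**Figure D1:**
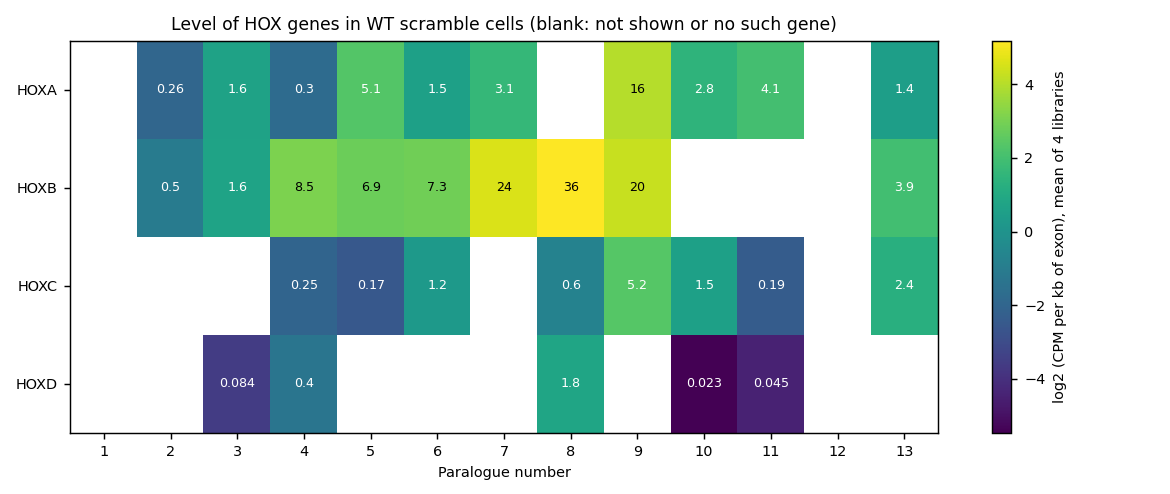
Mean level of each HOX gene in WT scramble cells, in CPM per kb of exon (printed in each cell, colour on a log2 scale), by cluster (rows) and paralogue number (columns), mean of 4 libraries. HOXB8 at 36.5 CPM per kb and its neighbours HOXB7 and HOXB9 are brightest, and the HOXD row is dim.

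The gene at the top of this order was not the same in every group. HOXA9 stood above HOXB8 in truncation knockdown cells, at 40.4 ± 2.11 against 21.7 ± 0.737 CPM per kb. In truncation scramble cells HOXB8 led with 37.4 ± 1.47 CPM per kb over 26.9 ± 0.246 for HOXA9. WT knockdown cells had HOXA9 and HOXB8 at 27.7 ± 0.97 and 26.2 ± 1.6 CPM per kb, a gap smaller than the SD of HOXB8. HOXA9 RNA was 30.9% of all HOX CPM in truncation knockdown cells, 19.4% in truncation scramble cells, 23.0% in WT knockdown cells and 12.5% in WT scramble cells.

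Of the 33 members, 29 passed the filter on low counts (HOXA 11, HOXB 9, HOXC 7, HOXD 2) and were tested. HOXC5, HOXD3, HOXD10 and HOXD11 did not pass. HOXC5 summed to 26, 26, 34 and 36 counts over the 4 libraries of the truncation knockdown, truncation scramble, WT knockdown and WT scramble groups. HOXD3 summed to 15, 15, 30 and 34 counts in the same order, and HOXD10 and HOXD11 to no more than 14 in any group. A further 6 HOX genes of the annotation, namely HOXB1, HOXC12, HOXD1, HOXD9, HOXD12 and HOXD13, lay outside the scaled table and had at most 4 counts in any library.

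OTUD5 knockdown was accompanied by higher HOXA and lower HOXB RNA in both genotypes, and the sum over all HOX genes differed less. HOXA members summed to 221.0, 213.2, 202.3 and 199.9 CPM in truncation knockdown libraries, against 141.2, 144.7, 144.8 and 146.1 CPM in truncation scramble libraries. In WT cells the HOXA sums were 157.6, 162.2, 151.5 and 159.3 CPM after knockdown, against 105.0, 105.0, 105.7 and 105.7 CPM with scramble. The 4 groups did not overlap, and truncation libraries lay above WT libraries of the same siRNA. HOXA9 supplied 122 ± 6.38 CPM of the truncation knockdown sum and 49 ± 1.47 CPM of the WT scramble sum.

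HOXB members summed to 163.4, 158.1, 166.3 and 159.2 CPM in truncation knockdown libraries, against 242.3, 249.1, 244.7 and 262.8 CPM in truncation scramble libraries. WT knockdown libraries had 180.0, 172.7, 173.7 and 188.9 CPM, against 257.1, 250.1, 248.1 and 262.4 CPM in WT scramble libraries. Knockdown and scramble did not overlap in either genotype, while the scramble groups of both genotypes did. The HOXC sums averaged 20.2 ± 0.670, 21.0 ± 0.945, 23.2 ± 2.63 and 25.1 ± 1.03 CPM in truncation knockdown, truncation scramble, WT knockdown and WT scramble cells, and the HOXD sums 4.39 ± 0.335, 3.56 ± 0.246, 5.23 ± 1.38 and 5.65 ± 0.119 CPM (SD, n = 4). All HOX genes together ranged from 382.8 to 410.3 CPM in truncation knockdown libraries, from 407.4 to 434.7 in truncation scramble libraries, from 354.5 to 377.1 in WT knockdown libraries and from 384.2 to 400.2 in WT scramble libraries. These sums carry no test, and in bulk RNA fewer cells with a transcript and less of it per cell cannot be told apart.

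**Figure D2:**
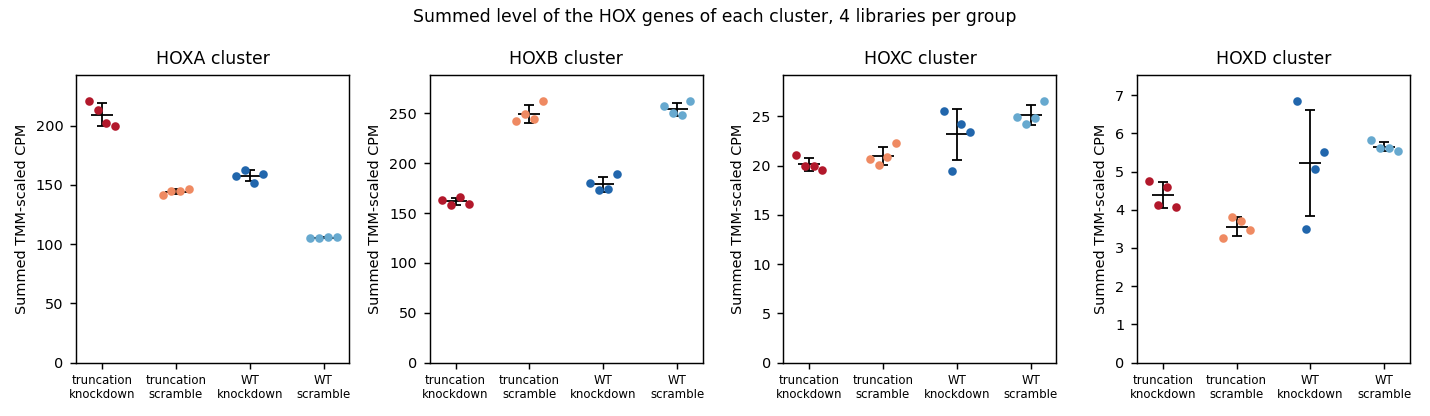
Summed TMM-scaled CPM of the HOX genes of each cluster in the 4 groups. Each point is 1 library and the bars are mean ± SD over 4 libraries. HOXA sums lie between 199.9 and 221.0 CPM in truncation knockdown cells and between 105.0 and 105.7 CPM in WT scramble cells, and HOXB sums are lower in both knockdown groups.

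In truncation cells, 8 members were called higher and 9 lower after knockdown, where 56.7% of all tested genes were called (28.7% higher and 28.1% lower). HOXA had 5 higher and 1 lower of 11, HOXB 1 higher and 6 lower of 9, HOXC 1 higher and 2 lower of 7, and HOXD 1 higher of 2. The median log2 fold change was 0.45 in HOXA and -0.75 in HOXB, against 0.02 over all tested genes. In WT cells, 8 members were called higher and 12 lower after knockdown, where 50.3% of all tested genes were called (25.2% higher and 25.1% lower). HOXA had 6 higher and 2 lower, HOXB 1 higher and 8 lower, HOXC 1 higher and 2 lower, and HOXD none, with medians of 0.29 in HOXA and -0.47 in HOXB, against 0.01 over all tested genes. In all, 17 of 29 members were called in truncation cells, near the share of all genes, and 20 of 29 in WT cells, above it. In truncation cells, 7 members had all knockdown libraries above all scramble libraries and 10 had them below, against 24.1% and 29.3% of all tested genes. In WT cells these were 7 and 11 members, against 19.5% and 21.6% of all tested genes.

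Among knockdown cells, 6 members were called higher and 10 lower in truncation than in WT, where 45.5% of all tested genes were called (21.9% higher and 23.6% lower). The lower count was 6 without WT knockdown replicate 1 and 6 without truncation knockdown replicate 4. With scramble, 5 members were called higher and 9 lower in truncation cells, where 44.0% of all tested genes were called (21.6% higher and 22.4% lower). Under upper-quartile scaling these became 4 higher and 12 lower, and the calls over all tested genes moved the same way, to 3084 higher and 4561 lower, against 3692 higher and 3837 lower with TMM. HOXA had 4 higher and 3 lower with knockdown, and 3 higher and 2 lower with scramble. HOXC had 1 higher and 4 lower in both siRNA conditions, with medians of -0.63 and -0.47. Libraries of the genotypes stood apart, truncation higher, for 6 members with knockdown and 5 with scramble (17.1% and 22.1% of all tested genes), and truncation lower for 4 and 9 members (18.8% and 20.5% of all tested genes).

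**Figure D3:**
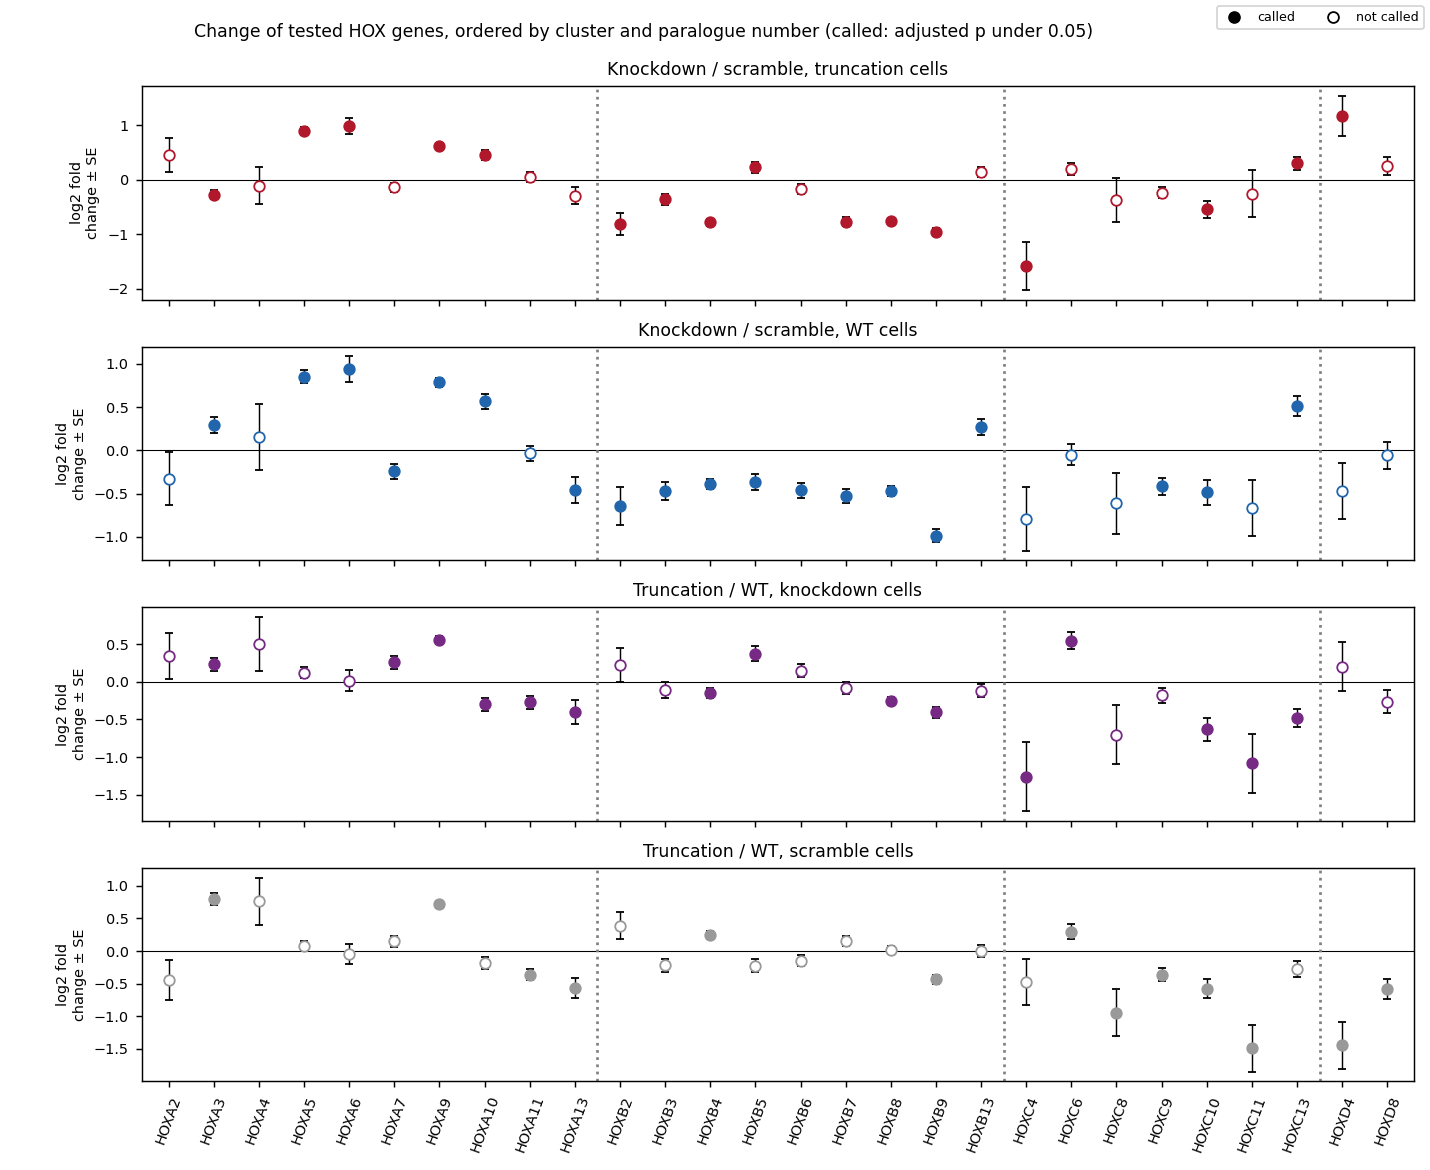
log2 fold change ± SE of tested HOX genes in 4 comparisons, ordered by cluster (dotted lines) and paralogue number. Filled points were called at an adjusted p under 0.05. With knockdown, HOXA5, HOXA6, HOXA9 and HOXA10 lie above 0 and HOXB2, HOXB3, HOXB4, HOXB7, HOXB8 and HOXB9 below it in both genotypes.

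In the HOXA cluster, HOXA9 was higher both after knockdown and in truncation cells. HOXA9, a gene of blood stem cells that is highly expressed in many leukaemias, had the highest mean CPM of the HOX genes over all libraries, and the second highest per kb after HOXB8 (27.8 against 30.4 CPM per kb). HOXA9 had 131, 123, 119 and 116 CPM in truncation knockdown libraries, against 81.99, 81.5, 80.3 and 81.6 CPM in truncation scramble libraries. Among WT libraries, those with knockdown had 83.2, 88.03, 81.1 and 83.2 CPM, against 48.3, 47.4, 49.4 and 50.8 CPM in those with scramble. No group overlapped another in any of the 4 comparisons, and the values were even within each group. Knockdown raised HOXA9 by 0.62 ± 0.05 in truncation cells and 0.79 ± 0.05 in WT cells (adjusted p = 9.76e-11 and 6.49e-12). It was higher in truncation cells by 0.56 ± 0.05 with knockdown and 0.72 ± 0.05 with scramble (adjusted p = 1.6e-09 and 2.57e-11). The annotated exons of HOXA9 share 27.0% of their length with other genes, among them HOXA10-AS and a transcript that runs over HOXA9 and HOXA10, and the strand setting of the counting is not given in the sources used here.

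HOXA5, HOXA6 and HOXA10 rose with knockdown in both genotypes. HOXA5, which in the mouse patterns lung and gut, shares no exon sequence with another gene. HOXA5 had 17.1, 17.4, 16.4 and 16.5 CPM in truncation knockdown libraries, against 8.05, 9.32, 10.02 and 9.76 CPM in truncation scramble libraries. The WT libraries gave 15.04, 15.9, 15.7 and 15.8 CPM after knockdown, against 8.12, 8.72, 8.88 and 9.15 CPM with scramble. The groups did not overlap within either genotype, with rises of 0.89 ± 0.08 and 0.85 ± 0.08 in truncation and WT cells (adjusted p = 2.68e-10 and 1.63e-09). Between genotypes HOXA5 differed by 0.12 ± 0.07 with knockdown and 0.08 ± 0.08 with scramble, and neither value was called.

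HOXA6, the upstream neighbour of HOXA5, had less RNA. HOXA6 had 3.07, 4.09, 3.67 and 3.82 CPM in truncation knockdown libraries, against 1.78, 2.36, 1.799 and 1.56 CPM in truncation scramble libraries. In WT cells the values were 3.98, 3.53, 3.94 and 3.13 CPM after knockdown, against 2.06, 1.92, 2.01 and 1.68 CPM with scramble. Its rises of 0.997 ± 0.15 in truncation cells and 0.94 ± 0.15 in WT cells were close to each other (adjusted p = 2.7e-06 and 9.32e-06). The antisense RNA HOXA-AS3 covers 39.3% of the HOXA6 exons and itself rose, by 1.18 ± 0.22 and 0.71 ± 0.22 in the same comparisons, and reads of the pair cannot be told apart where counting ignored strand. HOXA10, which acts in the uterus and in limb patterning, rose by 0.45 ± 0.09 and 0.57 ± 0.09 (adjusted p = 0.000187 and 1.09e-05). HOXA10 had 13.3, 12.7, 11.1 and 11.8 CPM in truncation knockdown libraries, against 8.65, 8.7, 9.47 and 9.86 CPM in truncation scramble libraries. Among WT libraries, those with knockdown had 14.5, 15.3, 13.1 and 17.7 CPM, against 10.8, 10.8, 9.02 and 10.7 CPM in those with scramble. In knockdown cells HOXA10 was lower in truncation than in WT (-0.30 ± 0.09, adjusted p = 0.00749), with overlapping libraries. With scramble the genotypes differed by -0.18 ± 0.09, not called, and called without WT scramble replicate 3 (-0.24, adjusted p = 0.0485). HOXA10 shares 26.3% of its exon length with HOXA10-AS and the transcript over HOXA9 and HOXA10.

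HOXA3, which patterns the pharyngeal arches, was called in opposite directions in the 2 genotypes. HOXA3 had 9.81, 10.2, 9.63 and 9.31 CPM in truncation knockdown libraries, against 11.97, 11.4, 12.9 and 11.9 CPM in truncation scramble libraries. The WT libraries gave 8.36, 7.44, 7.65 and 9.93 CPM after knockdown, against 7.35, 6.66, 7.08 and 6.398 CPM with scramble. Knockdown lowered it by 0.27 ± 0.09 in truncation cells and raised it by 0.29 ± 0.09 in WT cells (adjusted p = 0.00813 and 0.0104). The call in WT cells was lost without WT knockdown replicate 4, at 0.20 (adjusted p = 0.0652). HOXA3 was higher in truncation cells by 0.80 ± 0.09 with scramble (adjusted p = 7.92e-08). The corresponding rise with knockdown, 0.23 ± 0.09, was lost without any 1 of WT knockdown replicates 1, 2 and 3 and truncation knockdown replicates 1, 2 and 3 (0.18 to 0.23, adjusted p 0.0581 to 0.108). This last call was also lost without a count filter (adjusted p = 0.125) and with only the 2 groups compared in the fit (adjusted p = 0.086). HOXA3 transcripts span much of the cluster and share 17.9% of their exon length with other genes.

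HOXA11 and HOXA13, at the tail end of the cluster, were lower in truncation cells. HOXA13, a hindgut, genital and limb gene, had 3.82, 5.17, 5.57 and 5.09 CPM in truncation scramble libraries, against 6.86, 7.88, 8.01 and 5.93 CPM in WT scramble libraries, groups that did not overlap (-0.56 ± 0.15, adjusted p = 0.00424). With knockdown it had 2.97, 4.33, 4.52 and 3.85 CPM in truncation libraries, against 5.86, 3.71, 6.27 and 4.88 CPM in WT libraries. These overlapped, and the fall of 0.40 ± 0.16 (adjusted p = 0.0455) was lost without any 1 of WT knockdown replicates 1 and 3 and truncation knockdown replicates 1 and 4 (-0.40 to -0.29, adjusted p 0.0743 to 0.171). That call was also lost with only the 2 groups compared in the fit (adjusted p = 0.0641). With overlapping libraries, HOXA13 fell with knockdown in WT cells by 0.46 ± 0.15 (adjusted p = 0.0141), a call lost without WT knockdown replicate 2 (-0.32, adjusted p = 0.0599). HOXA11, a limb and uterus gene, averaged 7.43 ± 0.543 CPM in truncation knockdown, 7.35 ± 0.528 in truncation scramble, 9.06 ± 0.614 in WT knockdown and 9.35 ± 0.658 in WT scramble cells. It was lower in truncation cells by 0.27 ± 0.09 with knockdown and 0.36 ± 0.09 with scramble (adjusted p = 0.0114 and 0.00153), libraries of the 2 genotypes did not overlap, and knockdown gave no call.

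HOXA7 fell by 0.24 ± 0.09 with knockdown in WT cells (adjusted p = 0.023), a call lost without any 1 of WT knockdown replicates 3 and 4 and WT scramble replicates 1 and 3 (-0.23 to -0.21, adjusted p 0.0502 to 0.0748). In truncation cells its value was -0.14 ± 0.08, not called. It was higher in truncation than in WT knockdown cells by 0.26 ± 0.09 (adjusted p = 0.0174), a call lost without WT knockdown replicate 3 (0.23, adjusted p = 0.0501) or truncation knockdown replicate 2 (0.23, adjusted p = 0.0538). Both HOXA7 calls were also lost without a count filter (adjusted p = 0.109 each). With only the 2 groups compared in the fit they were lost too, at adjusted p = 0.0679 for knockdown in WT cells and 0.054 between genotypes. HOXA-AS3 covers 62.5% of the HOXA7 exons. HOXA2, a hindbrain and pharyngeal arch gene, and HOXA4 averaged under 1 CPM in every group and were not called in any comparison. Without truncation scramble replicate 4, HOXA2 became called with knockdown in truncation cells (0.85, adjusted p = 0.0287) and between genotypes with scramble (-0.84, adjusted p = 0.0388). HOXA4 became called between genotypes with scramble without truncation scramble replicate 4 (0.97, adjusted p = 0.039) or WT scramble replicate 2 (1.04, adjusted p = 0.042).

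**Figure D4:**
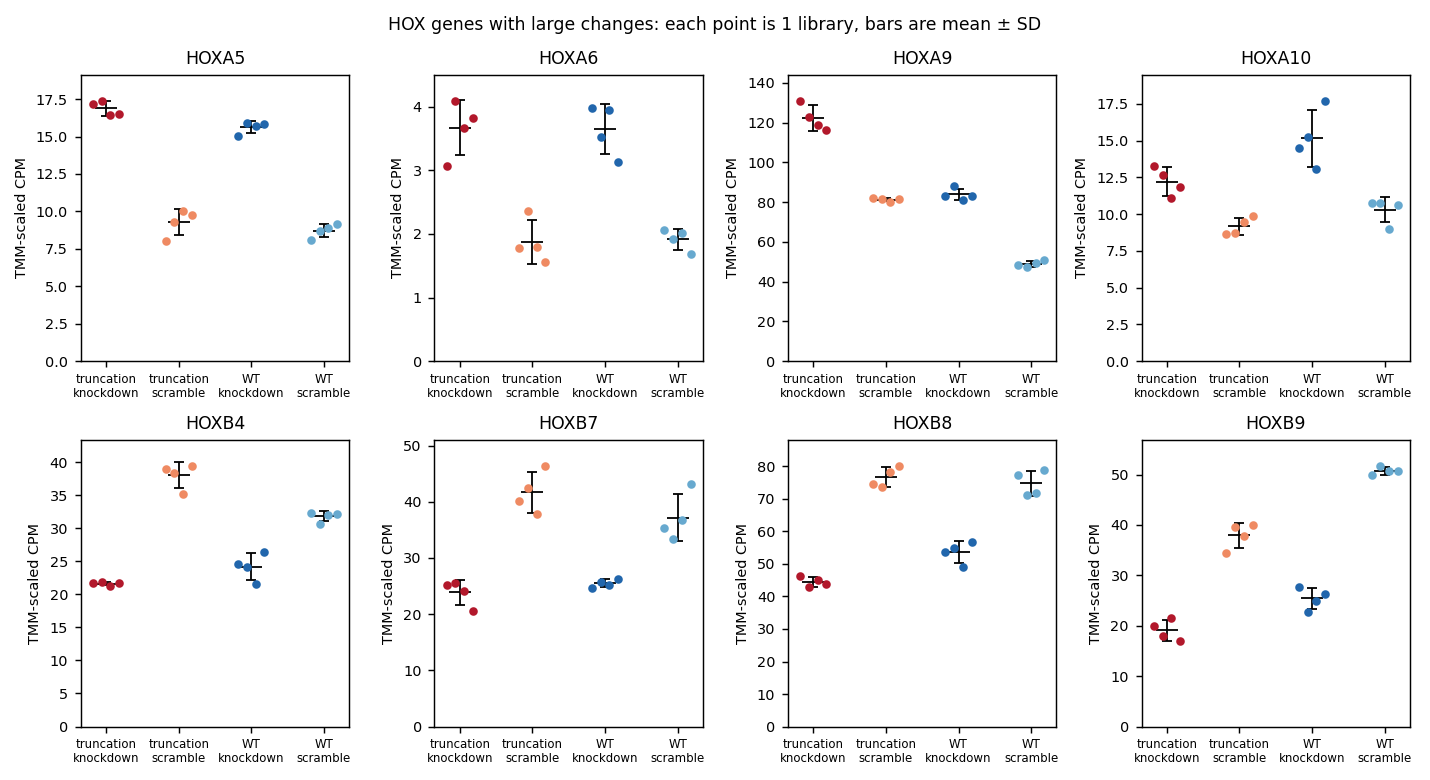
TMM-scaled CPM of 4 HOXA genes (top) and 4 HOXB genes (bottom) in the 4 groups. Each point is 1 library, bars are mean ± SD over 4 libraries, and axes start at 0. HOXA9 averages 122 CPM in truncation knockdown cells and 49 CPM in WT scramble cells, and HOXB9 averages 19.1 CPM and 50.7 CPM in the same groups.

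In the HOXB cluster, HOXB2, HOXB3, HOXB4, HOXB7, HOXB8 and HOXB9 fell with knockdown in both genotypes. HOXB9 fell by nearly the same amount in both, by 0.96 ± 0.07 in truncation cells and 0.99 ± 0.07 in WT cells (adjusted p = 5.41e-11 and 5.1e-11). HOXB9 had 19.9, 18.02, 21.5 and 16.9 CPM in truncation knockdown libraries, against 34.4, 39.5, 37.8 and 40.01 CPM in truncation scramble libraries. In WT cells the values were 27.6, 22.7, 25 and 26.4 CPM after knockdown, against 49.9, 51.7, 50.6 and 50.7 CPM with scramble. None of these groups overlapped. HOXB9 was also lower in truncation cells, by 0.41 ± 0.07 with knockdown and 0.43 ± 0.07 with scramble (adjusted p = 8.32e-05 and 1.87e-05). Its value in the interaction was 0.03 ± 0.10, not called. HOXB9, HOXB8, HOXB7 and HOXB13 share no exon sequence with other annotated genes.

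HOXB8, which acts in myeloid cells of the mouse and whose human message holds the miR-196 site shown above, fell by 0.75 ± 0.06 in truncation cells and 0.47 ± 0.06 in WT cells (adjusted p = 3.18e-11 and 1.51e-07). HOXB8 had 46.3, 42.8, 45.2 and 43.9 CPM in truncation knockdown libraries, against 74.7, 73.8, 78.4 and 80.2 CPM in truncation scramble libraries. Among WT libraries, those with knockdown had 53.7, 55.04, 49.1 and 56.8 CPM, against 77.2, 71.1, 71.8 and 78.96 CPM in those with scramble. Knockdown libraries lay below all scramble libraries. In knockdown cells HOXB8 was lower in truncation than in WT, by 0.26 ± 0.06 (adjusted p = 0.000565), and with scramble the genotypes differed by 0.02 ± 0.06, not called. HOXB7 fell by 0.77 ± 0.08 and 0.53 ± 0.08 (adjusted p = 1.03e-08 and 5.02e-06). HOXB7 had 25.3, 25.5, 24.1 and 20.6 CPM in truncation knockdown libraries, against 40.2, 42.5, 37.8 and 46.4 CPM in truncation scramble libraries. The WT libraries gave 24.7, 25.8, 25.3 and 26.3 CPM after knockdown, against 35.3, 33.4, 36.8 and 43.1 CPM with scramble. Neither genotype's groups overlapped, and HOXB7 was not called between genotypes except, with scramble, without WT scramble replicate 4 (0.23, adjusted p = 0.0174).

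HOXB4, known for expanding blood stem cells, fell further in truncation cells (-0.78 ± 0.06) than in WT cells (-0.39 ± 0.06), with adjusted p = 6.79e-11 and 9.07e-06. HOXB4 had 21.7, 21.8, 21.2 and 21.6 CPM in truncation knockdown libraries, against 39, 38.4, 35.1 and 39.4 CPM in truncation scramble libraries. In WT cells the values were 24.5, 24.2, 21.5 and 26.4 CPM after knockdown, against 32.3, 30.7, 31.98 and 32.2 CPM with scramble. With scramble, HOXB4 was higher in truncation than in WT cells by 0.24 ± 0.06 (adjusted p = 0.00183). With knockdown it was lower by 0.15 ± 0.06 (adjusted p = 0.0493), a call at the threshold that was lost under upper-quartile scaling (-0.15, adjusted p = 0.0538) and without any 1 of WT knockdown replicates 1, 2 and 4 and the 4 truncation knockdown replicates (-0.16 to -0.11, adjusted p 0.0529 to 0.173). This call was also lost without a count filter (adjusted p = 0.179) and with only the 2 groups compared in the fit (adjusted p = 0.117). HOXB4 shares 17.1% of its exon length with neighbours on the same strand, HOXB3 among them.

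HOXB2, a hindbrain gene, had about 1 CPM. HOXB2 had 0.958, 0.717, 0.983 and 0.751 CPM in truncation knockdown libraries, against 1.68, 1.096, 1.596 and 1.76 CPM in truncation scramble libraries. Among WT libraries, those with knockdown had 0.7196, 0.594, 0.788 and 0.836 CPM, against 0.976, 1.12, 1.25 and 1.29 CPM in those with scramble. Knockdown libraries lay below scramble libraries in both genotypes, with falls of 0.81 ± 0.21 and 0.64 ± 0.22 (adjusted p = 0.00171 and 0.0175). The call in WT cells was lost without WT knockdown replicate 2 (-0.55, adjusted p = 0.0566) and without a count filter (-0.646, adjusted p = 0.081). HOXB3 averaged 8.07 ± 1.41 CPM in truncation knockdown, 10.6 ± 1.02 in truncation scramble, 8.75 ± 0.426 in WT knockdown and 12.2 ± 1.09 in WT scramble cells. It fell by 0.36 ± 0.11 and 0.47 ± 0.11 in truncation and WT cells (adjusted p = 0.00585 and 0.000571), and shares 13.2% of its exon length with HOXB4, HOXB6 and antisense RNAs.

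HOXB5, which acts in the enteric nervous system, did not follow its neighbours in truncation cells. HOXB5 had 12.8, 14.1, 14.1 and 15.1 CPM in truncation knockdown libraries, against 11.2, 11.2, 11.4 and 15.3 CPM in truncation scramble libraries. The WT libraries gave 10.8, 10.4, 10.97 and 11.5 CPM after knockdown, against 15.4, 14.8, 12.6 and 13.9 CPM with scramble. In WT cells knockdown libraries lay below scramble libraries (-0.37 ± 0.10, adjusted p = 0.00227). In truncation cells the groups overlapped because scramble replicate 4 reached 15.3 CPM, and the rise of 0.23 ± 0.09 (adjusted p = 0.0418) was lost without any 1 of truncation knockdown replicates 2, 3 and 4 and truncation scramble replicates 1, 2 and 3 (0.16 to 0.21, adjusted p 0.0958 to 0.193). Its call was also lost without a count filter (0.201, adjusted p = 0.111). With scramble the genotypes differed by -0.22 ± 0.09, not called, but called under upper-quartile scaling (-0.27, adjusted p = 0.0289) and without WT scramble replicate 3 (-0.28, adjusted p = 0.0283) or truncation scramble replicate 4 (-0.34, adjusted p = 0.0031). HOXB5 was higher in truncation than in WT knockdown cells by 0.37 ± 0.09 (adjusted p = 0.00224), without overlap. HOXB6 fell by 0.46 ± 0.09 with knockdown in WT cells (adjusted p = 7.75e-05), and in truncation cells its value was -0.17 ± 0.09, not called, which became a call without truncation knockdown replicate 4 (-0.27, adjusted p = 0.0111). HOXB6 shares 32.9% of its exons with HOXB3 and HOXB-AS3. HOXB13, at the far end of the cluster and known from prostate and hindgut, rose with knockdown in WT cells by 0.27 ± 0.09 (adjusted p = 0.0159), with overlapping libraries. That call was lost without WT knockdown replicate 3 (0.20, adjusted p = 0.079) or WT scramble replicate 2 (0.23, adjusted p = 0.0593).

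HOXC genes had less RNA, and HOXC10 and HOXC13 were called in both genotypes after knockdown. HOXC10 had 1.72, 1.74, 1.57 and 1.37 CPM in truncation knockdown libraries, against 2.13, 2.12, 2.58 and 2.7 CPM in truncation scramble libraries. In WT cells the values were 2.95, 1.99, 2.79 and 2.23 CPM after knockdown, against 3.31, 3.45, 3.75 and 3.57 CPM with scramble. HOXC10, a gene of lumbar position, fell by 0.54 ± 0.16 and 0.49 ± 0.14 in truncation and WT cells (adjusted p = 0.00493 and 0.00654). It was also lower in truncation cells, by 0.63 ± 0.16 with knockdown and 0.57 ± 0.14 with scramble (adjusted p = 0.00183 and 0.00226), and none of these groups overlapped. HOXC13 had 7.004, 5.83, 5.54 and 5.19 CPM in truncation knockdown libraries, against 4.901, 4.73, 4.62 and 5.33 CPM in truncation scramble libraries. Among WT libraries, those with knockdown had 10.1, 6.22, 8.15 and 8.64 CPM, against 5.82, 5.72, 6.07 and 5.83 CPM in those with scramble. HOXC13, which controls hair keratin genes, rose by 0.30 ± 0.12 in truncation cells, with overlapping libraries, and by 0.51 ± 0.12 in WT cells without overlap (adjusted p = 0.041 and 0.000859). The first of these calls was lost without any 1 of truncation knockdown replicates 1, 2 and 3 and truncation scramble replicates 1, 2 and 3 (0.19 to 0.31, adjusted p 0.0559 to 0.231). That call in truncation cells was also lost without a count filter (adjusted p = 0.0874). In knockdown cells HOXC13 was lower in truncation than in WT, by 0.48 ± 0.12 (adjusted p = 0.00158), with overlap. With scramble its value of -0.27 ± 0.12 was called only under upper-quartile scaling (-0.32, adjusted p = 0.0375) and when the 2 scramble groups were fitted alone (-0.27, adjusted p = 0.0221).

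HOXC9 and HOXC6 differed between genotypes in opposite directions with scramble. HOXC9 had 7.21, 6.54, 6.35 and 7.199 CPM in truncation scramble libraries, against 8.54, 7.36, 8.81 and 10.04 CPM in WT scramble libraries, a fall of 0.36 ± 0.10 without overlap (adjusted p = 0.00468). WT knockdown libraries had 6.58, 5.66, 7.16 and 6.41 CPM, below every WT scramble library, a fall of 0.42 ± 0.10 (adjusted p = 0.00118). Truncation knockdown libraries had 5.65, 5.56, 5.8 and 5.65 CPM, all below the truncation scramble libraries, and the value against truncation scramble of -0.23 ± 0.10 was not called (adjusted p = 0.056). This HOXC9 value was called with only the 2 groups compared in the fit (-0.24, adjusted p = 0.025). It was also called without truncation scramble replicate 2 (-0.28, adjusted p = 0.0412) or 3 (-0.29, adjusted p = 0.0326). HOXC6 had 5.81, 6.07, 5.96 and 6.11 CPM in truncation knockdown libraries, against 4.15, 4.09, 3.97 and 4.32 CPM in WT knockdown libraries, a rise of 0.55 ± 0.11 without overlap (adjusted p = 0.000322). With scramble HOXC6 had 4.901, 4.73, 5.87 and 5.88 CPM in truncation libraries, against 4.36, 4.19, 3.47 and 5.22 CPM in WT libraries, which overlapped. That rise of 0.30 ± 0.11 (adjusted p = 0.0374) was lost under upper-quartile scaling (0.25, adjusted p = 0.0864) and without any 1 of WT scramble replicates 1, 2 and 3 and truncation scramble replicates 3 and 4 (0.21 to 0.31, adjusted p 0.0599 to 0.153). Its call was also lost without a count filter (adjusted p = 0.0709). HOXC6 shares 15.7% of its exon length with other HOXC genes.

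HOXC11, HOXC8 and HOXC4 had under 2 CPM in every library. HOXC11 summed to 22, 26, 46 and 72 counts in truncation knockdown, truncation scramble, WT knockdown and WT scramble cells. It was lower in truncation cells by 1.49 ± 0.36 with scramble, without overlap (adjusted p = 0.00147). With knockdown the fall of 1.08 ± 0.39 was lost without any 1 of WT knockdown replicates 1 and 4 and truncation knockdown replicates 2, 3 and 4 (-1.06 to -0.81, adjusted p 0.0524 to 0.101). This HOXC11 call was also lost without a count filter (adjusted p = 0.0967). HOXC4 summed to 19, 57, 45 and 77 counts in the same order of groups. It fell with knockdown in truncation cells by 1.58 ± 0.44 (adjusted p = 0.00356), and truncation knockdown replicate 3 overlapped the scramble libraries. Its fall against WT knockdown cells of 1.26 ± 0.46 was lost without any 1 of WT knockdown replicates 1 and 3 and truncation knockdown replicates 1, 2 and 4 (adjusted p 0.0579 to 0.113). HOXC8 was lower in truncation scramble cells by 0.94 ± 0.36 (adjusted p = 0.038), a call lost without any 1 of WT scramble replicates 2 and 3 and truncation scramble replicates 1, 3 and 4 (-0.92 to -0.59, adjusted p 0.0762 to 0.226).

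The 2 tested HOXD genes were both lower in truncation cells with scramble. HOXD8 had 2.801, 3.19, 3.16 and 3.29 CPM in truncation scramble libraries, against 4.77, 4.36, 4.68 and 4.61 CPM in WT scramble libraries, a fall of 0.58 ± 0.16 without overlap (adjusted p = 0.0041). With knockdown it had 3.87, 3.58, 3.64 and 3.43 CPM in truncation libraries, against 6.13, 2.73, 4.27 and 4.42 CPM in WT libraries. That difference of -0.26 ± 0.15 was not called, and was called without WT knockdown replicate 2, its lowest WT knockdown library (-0.44, adjusted p = 0.00424). HOXD4 summed to 58, 25, 49 and 67 counts in truncation knockdown, truncation scramble, WT knockdown and WT scramble cells. It was lower in truncation scramble than in WT scramble cells (-1.44 ± 0.36), without overlap, and rose with knockdown in truncation cells by 1.18 ± 0.37 (adjusted p = 0.00199 and 0.00806). Of the HOXD4 exons, 80.5% are shared with another transcript on the same strand, so its counts depend on how shared reads were assigned.

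The knockdown comparisons of the 2 genotypes share no library, and their calls can be set side by side. They came from 1 fit and used the same 4 pooled siRNAs, so other effects of that mix and lower OTUD5 cannot be told apart. HOXA5, HOXA6, HOXA9, HOXA10 and HOXC13 were among those called higher in both, and HOXB2, HOXB3, HOXB4, HOXB7, HOXB8, HOXB9 and HOXC10 lower in both. HOXA3 and HOXB5 were called in opposite directions. Of these calls, those of HOXC13 and HOXB5 in truncation cells and of HOXB2 and HOXA3 in WT cells were lost in at least 1 alternative, as given above. The test of the difference itself, the knockdown change of truncation cells less that of WT cells, called 2 members higher and 3 lower, where 5.69% of all tested genes were called (2.05% higher and 3.65% lower). Under upper-quartile scaling the calls over all tested genes were 502 higher and 397 lower, against 350 higher and 624 lower with TMM, and HOX members had 2 higher and 2 lower. HOXA3 had -0.56 ± 0.12, HOXB4 -0.39 ± 0.09 and HOXB5 0.60 ± 0.13 (adjusted p = 0.00803, 0.00716 and 0.0087), and these were called in every alternative tried. HOXB8 had -0.28 ± 0.08 (adjusted p = 0.0346), which was lost under upper-quartile scaling (-0.23, adjusted p = 0.101), without a count filter and without any 1 of WT knockdown replicate 4, WT scramble replicates 2 and 3, truncation knockdown replicate 2 and truncation scramble replicates 3 and 4 (-0.29 to -0.26, adjusted p 0.0547 to 0.0861). HOXD4 had 1.65 ± 0.49 (adjusted p = 0.0453), which was lost without a count filter and without any 1 of 12 libraries, that is all but WT knockdown replicates 2 and 4, WT scramble replicate 3 and truncation scramble replicate 2 (1.403 to 1.72, adjusted p 0.0584 to 0.105). The other 24 tested members were not called, which does not show that their changes were equal.

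**Figure D5:**
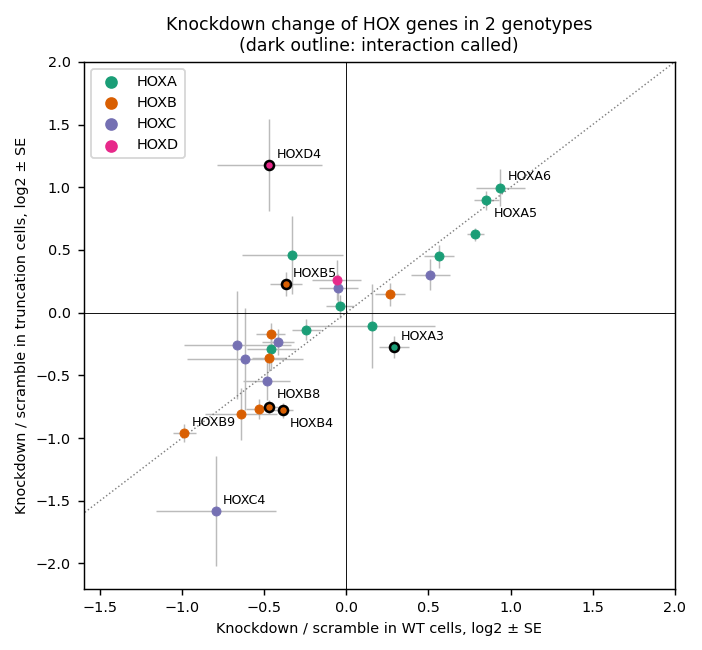
Knockdown change of tested HOX genes in truncation cells (vertical axis) against WT cells (horizontal axis), log2 ± SE, coloured by cluster, with the line of equal change dotted. Dark outlines mark the 5 genes called in the interaction test. HOXA5, HOXA6, HOXA9 and HOXA10 lie in the upper right, HOXB2, HOXB3, HOXB4, HOXB6, HOXB7, HOXB8 and HOXB9 in the lower left, and HOXB5 at -0.37 in WT and 0.23 in truncation cells in the upper left.

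Between genotypes, HOXA3, HOXA9 and HOXC6 were among those called higher in truncation cells with either siRNA, and HOXA11, HOXA13, HOXB9, HOXC10 and HOXC11 lower with either siRNA. HOXB4 was called higher with scramble and lower with knockdown. Some of these calls were lost in at least 1 alternative, as given above. They were those of HOXA3, HOXA13, HOXC11 and HOXB4 with knockdown and of HOXC6 with scramble. The genotype comparisons with knockdown and with scramble share no library either.

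Members of 1 paralogue group moved apart with knockdown in several cases. In group 9, HOXA9 rose while HOXB9 fell in both genotypes, and HOXC9 fell in WT cells. In group 10, HOXA10 rose while HOXC10 fell in both genotypes. In group 5, HOXA5 rose in both, with HOXB5 as given above. Among the 3 members of group 8, HOXB8 fell in both genotypes while HOXC8 (-0.37 ± 0.41 in truncation and -0.61 ± 0.35 in WT cells, called without WT knockdown replicate 3, at adjusted p = 0.0302, or WT scramble replicate 4, at adjusted p = 0.0296) and HOXD8 (0.26 ± 0.16 and -0.06 ± 0.15) were not called. In group 13, HOXB13 and HOXC13 rose and HOXA13 fell in WT cells, and the calls of HOXB13 and HOXA13 were lost without some single libraries, as given above. Groups 2, 7, 8 and 11, of 2 or 3 tested members each, held no member called higher with knockdown in either genotype. Over all tested genes, 28.7% were called higher in truncation cells and 25.2% in WT cells, so with so few members this does not set these groups apart.

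Genes that act with or on HOX clusters were read from lists, whose counts stand against 28.7% of all tested genes called higher and 28.1% lower with knockdown in truncation cells, and 25.2% and 25.1% in WT cells. Between genotypes the shares were 21.9% higher and 23.6% lower in truncation than in WT cells with knockdown, and 21.6% and 22.4% with scramble. Of 11 trithorax and related activators, 8 were called higher and 3 lower with knockdown in truncation cells, and 7 higher and 2 lower in WT cells, with median log2 fold changes of 0.47 and 0.28. KDM6A, which removes the Polycomb mark from histone H3, rose by 0.96 ± 0.07 and 0.85 ± 0.07, while MEN1, which tethers KMT2A and KMT2B to chromatin, fell by 0.59 ± 0.07 and 0.49 ± 0.07. KMT2A itself had 0.68 ± 0.14 in truncation cells, a called rise, and 0.24 ± 0.14 in WT cells, not called. The test of the difference itself did not call KMT2A (0.44 ± 0.19, adjusted p = 0.186). Its truncation knockdown libraries were uneven, from 84.7 CPM in replicate 1 to 155 CPM in replicate 4. Of the 11 activators, the test of the difference called 2 higher and 0 lower, against 2.05% and 3.65% of all tested genes. Of 13 Polycomb genes, 8 were called higher and 3 lower in either genotype, with medians of 0.22 in both. The reader subunit CBX7 fell by 0.54 ± 0.10 and 0.45 ± 0.10, while the methyltransferase EZH2 had -0.06 ± 0.06 and 0.01 ± 0.06, not called. Between genotypes EZH2 was lower in truncation cells, by 0.37 ± 0.06 with knockdown and 0.30 ± 0.06 with scramble. Polycomb genes had 4 higher and 3 lower in truncation cells with knockdown and 4 higher and 4 lower with scramble, and the activators 2 and 2, then 3 and 3. In the test of the difference between the knockdown changes, 2 of the 13 Polycomb genes were called higher and 0 lower.

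Of 9 tested genes of the TALE homeobox class, 2 were called higher and 2 lower with knockdown in truncation cells, and 1 higher and 2 lower in WT cells. Their median log2 fold changes were 0.03 and -0.07. The list holds TGIF1 and TGIF2 besides PBX, MEIS and PKNOX genes, and the counts do not set them apart. MEIS2 rose by 0.47 ± 0.07 and 0.55 ± 0.07 and PBX2 fell by 0.54 ± 0.06 and 0.49 ± 0.06. Between genotypes 3 genes of this list were higher and 4 lower in truncation cells with either siRNA. The test of the difference between the knockdown changes called 1 of the 9 higher and 0 lower, against 2.05% and 3.65% of all tested genes. CDX2, an intestinal activator of HOX genes, averaged 21.7 ± 1.28 CPM in truncation knockdown, 21.4 ± 0.866 in truncation scramble, 20.1 ± 1.56 in WT knockdown and 21.5 ± 0.656 in WT scramble cells and was not called in any comparison. PDX1, the other tested gene of the 6 CDX and ParaHox genes listed, rose by 0.41 ± 0.13 with knockdown in truncation cells and was lower in truncation than in WT scramble cells (-0.41 ± 0.13). In the retinoic acid list, 10 of 17 genes were tested, and 5 were called higher and 3 lower with knockdown in truncation cells, and 3 higher and 3 lower in WT cells, with medians of 0.22 and -0.01. ALDH1A3, which makes retinoic acid, rose by 1.14 ± 0.06 and 0.64 ± 0.06, and DHRS3, which reduces retinal, by 1.07 ± 0.06 and 0.52 ± 0.06. CRABP2, which carries retinoic acid to its receptors, was lower in truncation cells by 1.33 ± 0.07 with knockdown and 1.17 ± 0.07 with scramble. In all, 4 members of the list were higher and 2 lower in truncation cells with knockdown, and 1 higher and 4 lower with scramble. Of the 10 tested genes of the retinoic acid list, the test of the difference between the knockdown changes called 4 higher and 0 lower.

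Long non-coding RNAs of the clusters were scarce. Of 20 listed, 15 were in the scaled table and 11 were tested. The list of 20 includes PRAC1, which codes for a protein next to HOXB13, and the counts do not set it apart. With knockdown, 2 were called higher and 1 lower in truncation cells, and 1 higher and 3 lower in WT cells. HOXA-AS3 rose in both, as given above for its neighbour HOXA6. Most HOXB genes fell with knockdown in both genotypes. HOXB-AS3 fell by 0.67 ± 0.12 in WT cells and had -0.16 ± 0.12 in truncation cells, not called. In the test of the difference between these changes, none of the 11 tested genes of the list was called. HOTAIR and HOTTIP averaged under 1 CPM in every group and did not pass the filter. Between genotypes 1 was called higher and 1 lower in truncation cells with knockdown, and 3 lower with scramble.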

How the data were processed

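RNA of 16 HCT116 libraries was measured by sequencing of Nextera-based libraries prepared by a commercial vendor, per the labels' protocols. The submitters' processing notes name STAR 2.7.3a and the build hg38; which program counted reads, with which annotation and whether by strand, is not given in the sources used here. Counts as deposited are whole read counts per gene as made by the authors, in 60668 rows with an Ensembl identifier and symbol. The deposited signal values are those counts of 22916 genes divided by library size and scaled by TMM; recomputing them from the counts gave the deposited numbers. The members and lists were chosen with earlier results of these data known.

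Libraries held 28777244 to 29645663 counts, which sets the precision of low genes such as HOXC4. Samples were grouped by description and treatment; 4 truncation knockdown titles name the scramble siRNA, but OTUD5 was low in all 8 libraries labelled as knockdown. Genes were filtered with edgeR's filterByExpr (17104 kept, at least 99.8% of each library's counts), normalised by TMM, and tested with edgeR 4.0.16 (quasi-likelihood, R 4.3.3, limma 3.58.1) in 1 fit of all 16 libraries with 12 residual degrees of freedom and a common biological coefficient of variation of 7.25%. P-values were adjusted by Benjamini-Hochberg over all genes tested and called under 0.05; SE was obtained from the log2 fold change and its F statistic. DESeq2 1.42.0, upper-quartile scaling, no count filter, fits of 2 groups alone, limma voom for the interaction, a replicate block and each library left out were the alternatives. Replicates of a group differed beyond counting noise (chi-square per degree of freedom 2.75 to 20.8).

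Values in every library are given for up to 8 called members per comparison, those with the largest change at a mean log2 CPM of at least 0. Exon lengths and overlaps come from GENCODE annotation of GRCh38 and promoters and microRNAs from RefSeq, GRCh38.p14. A few genes are not reported here, although counts and sums include them.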

Additional observations from a re-analysis of the deposited data

Results flagged for a closer look

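In 6 of 116 groups of 4 libraries, 1 library of a tested HOX gene stood far from the other 3, where chance gives about 1 in 20. HOXA4 had 0.871 CPM in WT knockdown replicate 4, against 0.48 to 0.493 CPM in the other libraries of that group. HOXA10 had 9.02 CPM in WT scramble replicate 3, against 10.7 to 10.8 CPM. HOXA11 had 8.15 CPM in WT knockdown replicate 3, against 9.26 to 9.46 CPM. HOXB5 had 15.3 CPM in truncation scramble replicate 4, against 11.2 to 11.4 CPM. HOXC4 had 0.36 CPM in truncation knockdown replicate 3, against 0.0653 to 0.102 CPM, and HOXC8 had 0.653 CPM in truncation knockdown replicate 4, against 0.363 to 0.393 CPM.

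The knockdown change differed between truncation and WT cells, in the test of the difference itself, for 5 members. The log2 difference was -0.56 for HOXA3, -0.39 for HOXB4, 0.6 for HOXB5, -0.28 for HOXB8 and 1.65 for HOXD4, of which the last 2 were lost when single libraries were left out, as given with their values above. Without truncation scramble replicate 4, the library in which HOXB5 stood high, the HOXB5 difference was still called.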

How the results depend on the processing

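No HOX gene that was called changed direction under any alternative run. Of the called members, 2 of 14 lost the call in at least 1 alternative for truncation against WT with scramble, 6 of 16 with knockdown, 2 of 17 for knockdown in truncation cells, 5 of 20 in WT cells and 2 of 5 in the interaction, and 8, 2, 4, 2 and 0 uncalled members gained a call. The interaction called 974 genes with edgeR, 1470 with DESeq2 and 911 with limma voom, and 653 to 1661 when each library was left out, the highest without WT knockdown replicate 2. HOX genes called higher in the interaction numbered 2, but 1 with DESeq2 and 1 without a count filter, and 1 to 2 with a library left out. DESeq2 gave HOXD4 no adjusted p in the interaction, so its missing call there is not a failed test. Members called lower in truncation against WT knockdown cells ranged from 6 to 11 with a library left out. The causes were not tested. Libraries with the same replicate number had deviations that correlated by -0.078 to 0.164. Libraries of different number were not compared in this way, so whether replicate numbers pair the samples was not settled. With the replicate number as a block, calls over all genes were 7704 and 7926 for truncation with scramble and knockdown, against 7529 and 7783 without it. For knockdown in truncation and WT cells they were 9858 and 8755, against 9706 and 8604, and for the interaction 1150, against 974. With this block, HOXC9 (knockdown in truncation cells, adjusted p = 0.0467) and HOXB5 (truncation with scramble, adjusted p = 0.0416) became called. Upper-quartile scaling moved the median of all genes by less than 0.1 on the log2 scale. HOXC4, HOXC11 and HOXD4 rest on 19 to 77 counts per group, so smaller changes in them were not detectable at this depth.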
